A study of Mus musculus with 24 samples.

Results

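Respiratory complex I is the NADH dehydrogenase of the inner mitochondrial membrane. It was followed here through the 42 nuclear genes, of 22180 genes tested, whose symbols carry its systematic names. They are the genes named Ndufa, Ndufb, Ndufc, Ndufs, Ndufv or Ndufaf with a number at the end, pseudogenes left out, each read from 1 transcript cluster, the set of array probes assigned to a locus. By their names 34 are subunits and 8 are Ndufaf assembly factors. Where several clusters carried the same symbol the one with the highest mean signal was used, which concerned Ndufa8, Ndufa11 and Ndufa12. Clusters that carry several symbols stayed out, so Ndufs6, Ndufb2 and Ndufb4 are not among the members, and of the 7 subunit genes of mitochondrial DNA 0 were measured.

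The quadriceps of ICR mouse offspring gave primary muscle cells, which were differentiated into myotubes and hybridised to 24 single-colour arrays, in 4 groups of 6. In the undernourished groups the dams were fed 50% of the intake of controls from gestational day 12.5 until birth, and in the control groups they ate freely. Litters of both were brought to 8 pups. Limited medium, given overnight, contained 1% fetal bovine serum, 0.5 mM carnitine, 1 mM glutamine and 0.5 mM glucose, and standard medium was low-glucose DMEM with 2% serum and 5.5 mM glucose. The groups are undernourished limited, undernourished standard, control limited and control standard. The undernourished cultures carry the numbers 1, 4, 8, 9, 12 and 20 and the control cultures 5, 10, 11, 15, 16 and 24, each with 1 array per medium. Whether such a number stands for a flask, a litter or an animal is not stated, so the p-values reflect only how these samples vary, and some of that variation may be technical. The design addresses how cells of undernourished offspring respond when substrate is scarce.

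Complex I takes electrons from NADH and passes them along a chain of iron-sulfur clusters to ubiquinone, pumping protons as it does so. Its matrix arm holds the NADH-binding and ubiquinone-side core subunits, its membrane arm holds the proton pumps, which are made from mitochondrial DNA, and a large set of accessory subunits surrounds both. Assembly factors build the complex in modules and then leave it. In skeletal muscle it is the main entry point for electrons from carbohydrate and fat oxidation. Ndufa4, now regarded as a subunit of cytochrome c oxidase, and its paralogue Ndufa4l2, a hypoxia-inducible gene, bear subunit names without being part of complex I. They were kept under the naming rule, and counts are also given without them.

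Over both maternal diets, 6 of 34 subunit genes rose in limited medium and 0 fell, where 3.56% of all genes tested rose and 3.28% fell. Of the 34, 31 had a positive difference. Those that rose were Ndufb11, Ndufa11, Ndufa2, Ndufs7, Ndufv1 and Ndufb5, by 1.18-fold to 1.55-fold. Of the 8 Ndufaf genes 0 passed the test. For maternal diet in either medium 0 complex I genes passed by limma, as did 0% of all genes. At an unadjusted p under 0.05 there was 1 of 42 in limited medium, against 5.44% of all genes. In standard medium there were 2 of 42, against 3.14% of all genes.

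**Figure D1:**
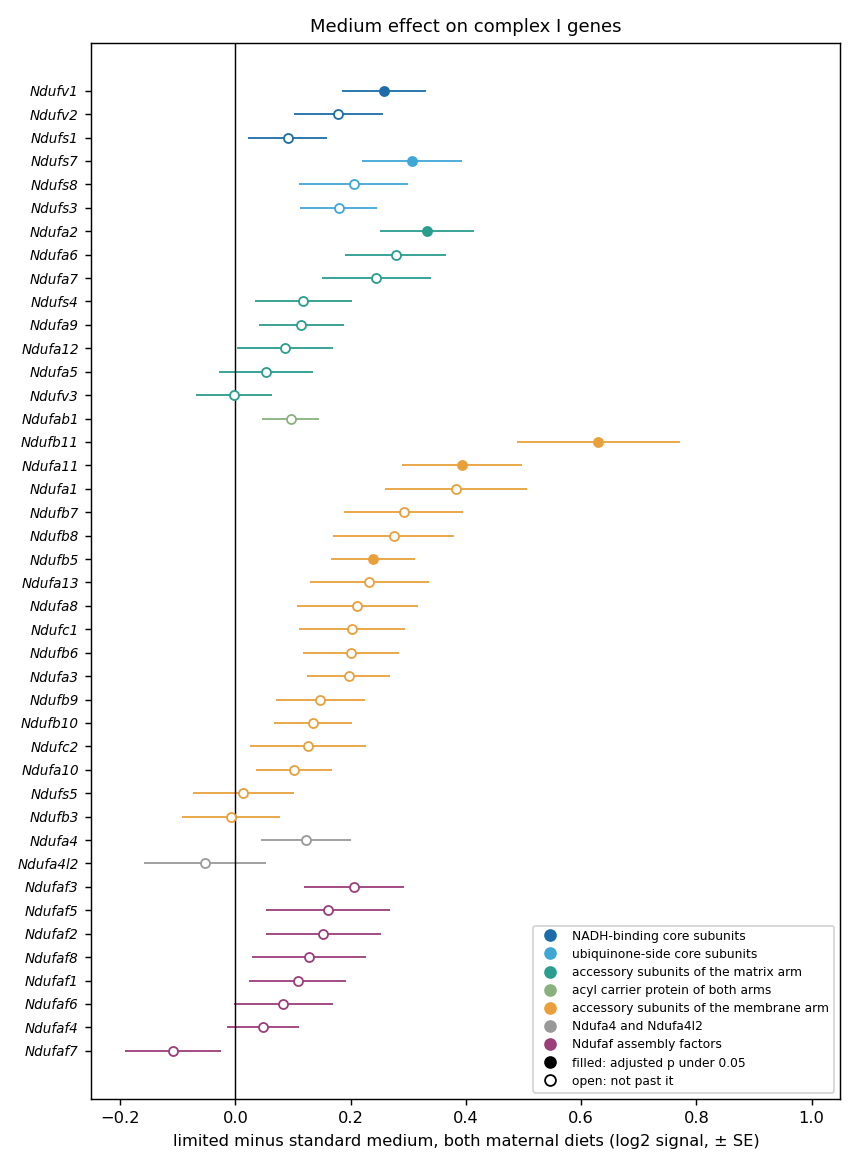
Difference between limited and standard medium over both maternal diets for each of the 42 genes (x axis, log2 signal, mean ± SE from limma on 24 arrays), ordered by role from top to bottom. Filled points passed an adjusted p of 0.05: 6 subunits and 0 assembly factors, and 38 of 42 points lie above 0.

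The promoters of a few members are shown because most members had a positive difference in limited medium. Nuclear genes of the respiratory chain are textbook targets of NRF1 and of the ETS factor GABP (also called NRF2). In part they are also targets of YY1 and the estrogen-related receptors. A relation of the motifs to the medium differences was not tested. RefSeq (GRCm38.p6) windows reaching 250 bases before to 50 after the transcript start were matched for 37 of 42 members, in 39 windows. Ndufb11 (chrX:20617570-20617869, minus strand) had the largest rise and holds no motif searched. Ndufa11 (chr17:56717512-56717811, plus strand) and Ndufs7 (chr10:80249199-80249498, plus strand) are other risen genes, and Ndufs8 (chr19:3912725-3913024, minus strand) is a core subunit that did not pass. Capitals mark the NRF1 motif in Ndufa11, matched on both strands, the YY1 motif in Ndufs7 and the ETS motif, on the reverse strand, in Ndufs8.
Ndufb11: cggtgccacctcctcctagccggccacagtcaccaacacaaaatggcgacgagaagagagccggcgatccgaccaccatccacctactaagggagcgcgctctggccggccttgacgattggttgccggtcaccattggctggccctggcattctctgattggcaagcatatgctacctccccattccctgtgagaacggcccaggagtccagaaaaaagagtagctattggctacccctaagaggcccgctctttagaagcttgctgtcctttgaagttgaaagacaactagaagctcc
Ndufa11: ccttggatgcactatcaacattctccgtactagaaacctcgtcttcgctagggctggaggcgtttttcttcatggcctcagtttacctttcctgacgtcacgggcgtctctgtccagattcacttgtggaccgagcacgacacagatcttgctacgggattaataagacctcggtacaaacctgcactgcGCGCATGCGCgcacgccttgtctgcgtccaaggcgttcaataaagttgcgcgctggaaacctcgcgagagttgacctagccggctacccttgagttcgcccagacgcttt
Ndufs7: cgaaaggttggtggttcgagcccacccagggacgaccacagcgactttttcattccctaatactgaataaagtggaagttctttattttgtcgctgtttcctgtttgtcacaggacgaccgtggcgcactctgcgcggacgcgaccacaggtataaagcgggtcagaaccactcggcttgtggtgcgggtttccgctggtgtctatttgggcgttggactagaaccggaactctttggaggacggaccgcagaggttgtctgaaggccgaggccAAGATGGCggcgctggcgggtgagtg
Ndufs8: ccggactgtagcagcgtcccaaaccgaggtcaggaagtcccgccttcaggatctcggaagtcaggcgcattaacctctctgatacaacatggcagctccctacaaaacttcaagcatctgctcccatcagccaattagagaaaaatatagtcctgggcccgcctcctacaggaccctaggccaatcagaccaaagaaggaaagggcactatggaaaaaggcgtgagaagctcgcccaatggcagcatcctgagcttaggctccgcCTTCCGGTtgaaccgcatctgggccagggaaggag

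Motifs were searched as exact letters on both strands. NRF1 was searched as GCGCNTGCG, which 10 of the 39 member windows held (25.6%), in 9 genes, against 6.31% of all 32851 windows of this length. The ETS motif ACCGGAAG was in 4 member windows (10.3%) and in 2.30% of all windows. The YY1 motif AAGATGGC was in 7 member windows (17.9%) and in 2.75% of all. For the estrogen-related receptors TCAAGGTCA was searched, which 0 of 39 member windows and 0.423% of all held. In no member window did motifs of different factors overlap. The NRF1 motif lay in Ndufa5, Ndufa6, Ndufa8, Ndufa11, Ndufa12, Ndufb10, Ndufs5, Ndufaf4 and Ndufaf5, the ETS motif in Ndufb6, Ndufs3, Ndufs8 and Ndufaf1, and the YY1 motif in Ndufa3, Ndufa9, Ndufb8, Ndufc1, Ndufs4, Ndufs7 and Ndufaf8. Of the 6 risen genes, Ndufa11 and Ndufs7 hold a motif, Ndufb11, Ndufv1 and Ndufb5 hold none of those searched, and Ndufa2 was not matched. The set of all windows was not matched to the member windows for base composition, whose part in these shares was not tested. A match is a run of letters and not a shown binding site.

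All values are signals on a log2 scale as the authors normalised them. Array medians lay between 5.60 and 5.81. Of the 42 members 40 had a mean signal at or above 6.02, the median of all genes; the exceptions were Ndufs5 (5.50) and Ndufa4l2 (5.34), with Ndufb11 (6.13) just above. At the other end of the signal range were Ndufb9 (12.16), Ndufa4 (11.37) and Ndufa10 (11.11). Probe sets differ in brightness, so these means do not order the transcripts. The labels call the cells differentiated muscle, and the mean signal of 15 markers of myotubes lay between 11.75 and 12.20 on all 24 arrays. Means for endothelial, leukocyte and adipocyte markers lay between 4.48 and 5.34. Those of 8 satellite cell and myoblast markers lay between 8.27 and 9.02. The means of 7 smooth muscle and pericyte markers lay between 7.76 and 8.06. The mean of 9 fibroblast markers spanned 5.53 to 7.75 in undernourished limited, 5.65 to 7.56 in undernourished standard, 5.81 to 8.02 in control limited and 5.78 to 7.39 in control standard arrays. The high ends were cultures 20 and 16. In culture 20 the mean of 6 Schwann and glial markers was 8.44 in limited and 8.37 in standard medium, against 5.99 to 7.05 on the other arrays. Counts are therefore also given without these cultures.

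Each gene was tested with limma, with Benjamini-Hochberg adjustment over the 22180 genes, two-sided, at an adjusted p of 0.05. For the medium over both diets 6.84% of all genes passed, 3.56% higher and 3.28% lower, against 6 of 34 subunits (17.6%), all higher, and 0 of 8 assembly factors. At an unadjusted p under 0.05 there were 18 subunits, all higher, and 1 assembly factor, against 20.3% of all genes. The median difference was 0.19 over the subunits, 0.12 over the assembly factors and 0.01 over all genes. Without Ndufa4 and Ndufa4l2, 6 of 32 subunits rose and the median was 0.20. These are bulk cultures, in which fewer cells of a type and less RNA per cell cannot be told apart.

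The count of risen subunits depended on single cultures. It was 2 without control culture 11 or without control culture 10, 3 without undernourished culture 1, 4, 12 or 20, and 13 without undernourished culture 9. It was 4 without both cultures 16 and 20. Ndufb11 and Ndufa2 passed in each of these fits. Both also passed under each of the 19 alternatives run, with adjusted p up to 0.0276 for Ndufb11 and 0.0452 for Ndufa2 in limma. Ndufa11 and Ndufs7 passed in 13 of the 19, Ndufv1 in 11 and Ndufb5 in 7.

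The core subunits of the NADH-binding end are Ndufv1, which holds the flavin and the NADH site, and the iron-sulfur proteins Ndufv2 and Ndufs1. Ndufv1 spanned 9.88 to 10.09 in undernourished limited arrays (median 10.02) and 9.44 to 10.09 in undernourished standard arrays (median 9.78). It spanned 9.77 to 10.20 in control limited arrays (median 10.08) and 9.40 to 9.89 in control standard arrays (median 9.77). The limited arrays lay higher by their medians in both diets, and the ranges overlapped. Ndufv1 rose by 0.26 ± 0.07 (SE), a 1.20-fold difference, in 11 of 12 cultures (adjusted p = 0.0324). Ndufv2 differed by 0.18 ± 0.08 and Ndufs1 by 0.09 ± 0.07, and neither passed (limma adjusted p = 0.182 and 0.509).

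On the ubiquinone side, Ndufs7 carries the last iron-sulfur cluster before the quinone. Its signal was 10.21 to 10.71 in undernourished limited arrays (median 10.41) and 9.55 to 10.45 in undernourished standard arrays (median 10.28). Control limited arrays gave 10.21 to 10.69 (median 10.60) and control standard arrays 9.96 to 10.40 (median 10.18). The ranges overlapped, yet within each culture number the limited array was the higher in 12 of 12. Ndufs7 rose by 0.31 ± 0.09, or 1.24-fold (limma adjusted p = 0.0321). Ndufs8, an iron-sulfur subunit, differed by 0.21 ± 0.09 (adjusted p = 0.215), and Ndufs3, a core subunit without a redox centre, by 0.18 ± 0.07 (adjusted p = 0.110). All 6 measured core subunits thus had positive differences, and 2 of them passed.

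Among the 8 measured accessory subunits of the matrix arm 1 rose, Ndufa2, a small protein with a thioredoxin-like fold. Ndufa2 spanned 8.75 to 9.12 in undernourished limited arrays (median 8.80) and 8.33 to 8.95 in undernourished standard arrays (median 8.64). It spanned 8.74 to 9.27 in control limited arrays (median 9.05) and 8.36 to 8.99 in control standard arrays (median 8.57). The groups overlapped, and 10 of 12 cultures were higher in limited medium. The rise was 0.33 ± 0.08, or 1.26-fold (limma adjusted p = 0.0137). The other 7 lay between -0.00 for Ndufv3 and 0.28 for Ndufa6, and the median of the 8 was 0.12. Ndufa6, of the LYR-motif family, was the member nearest to the threshold among those that missed it (adjusted p = 0.0549). Ndufab1, the mitochondrial acyl carrier protein that sits in both arms, differed by 0.10 ± 0.05.

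The membrane arm had 3 of its 17 measured accessory subunits risen, with a median of 0.20 and 16 of 17 positive. Ndufb11 is an X-linked subunit of the distal part of the arm. Its signal was 6.05 to 6.93 in undernourished limited arrays (median 6.26) and 5.49 to 6.52 in undernourished standard arrays (median 5.98). In control limited arrays it was 5.98 to 6.81 (median 6.56) and in control standard arrays 5.23 to 6.17 (median 5.50). The control groups overlapped narrowly and the undernourished groups more widely. Ndufb11 rose by 0.63 ± 0.14, or 1.55-fold, the largest difference among the 42 (limma adjusted p = 0.00767). It was higher in 12 of 12 cultures, but unevenly: by 1.16, 1.39 and 1.59 in control cultures 5, 10 and 11, and by 0.06, 0.05 and 0.11 in undernourished cultures 8 and 9 and control culture 16.

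Ndufa11, which lies where the membrane arm meets complex III in the supercomplex, spanned 9.70 to 10.51 in undernourished limited arrays (median 9.93) and 9.33 to 10.31 in undernourished standard arrays (median 9.73). Control limited arrays spanned 10.01 to 10.71 (median 10.26) and control standard arrays 9.69 to 10.02 (median 9.78). The control groups met only at their ends, and the undernourished groups overlapped. Ndufa11 rose by 0.39 ± 0.10, or 1.31-fold, in 9 of 12 cultures (limma adjusted p = 0.0209). Its second, dimmer cluster did not show this: the mean within-culture difference was -0.07 ± 0.14 (SE, 12 cultures), against 0.39 ± 0.12 for the brighter one. With both clusters averaged the difference was 0.16 (adjusted p = 0.354). The second clusters of Ndufa8 and Ndufa12 gave 0.41 ± 0.17 and 0.20 ± 0.12, against 0.21 ± 0.09 and 0.09 ± 0.08 for the brighter ones.

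Ndufb5, a single-helix subunit of the distal membrane arm, spanned 9.04 to 9.36 in undernourished limited arrays (median 9.13) and 8.71 to 9.32 in undernourished standard arrays (median 8.97). It spanned 8.96 to 9.55 in control limited arrays (median 9.23) and 8.78 to 9.14 in control standard arrays (median 8.96). The ranges overlapped in both diets. Ndufb5 rose by 0.24 ± 0.07, or 1.18-fold, in 11 of 12 cultures, just inside the threshold (limma adjusted p = 0.0476). Ndufa1, another X-linked subunit, and Ndufb7 did not pass, with 0.38 ± 0.12 and 0.29 ± 0.10 (adjusted p = 0.0622 and 0.0916). Ndufb3 was at -0.01 ± 0.09. Ndufa4 was at 0.12 ± 0.08 and Ndufa4l2 at -0.05 ± 0.11.

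**Figure D2:**
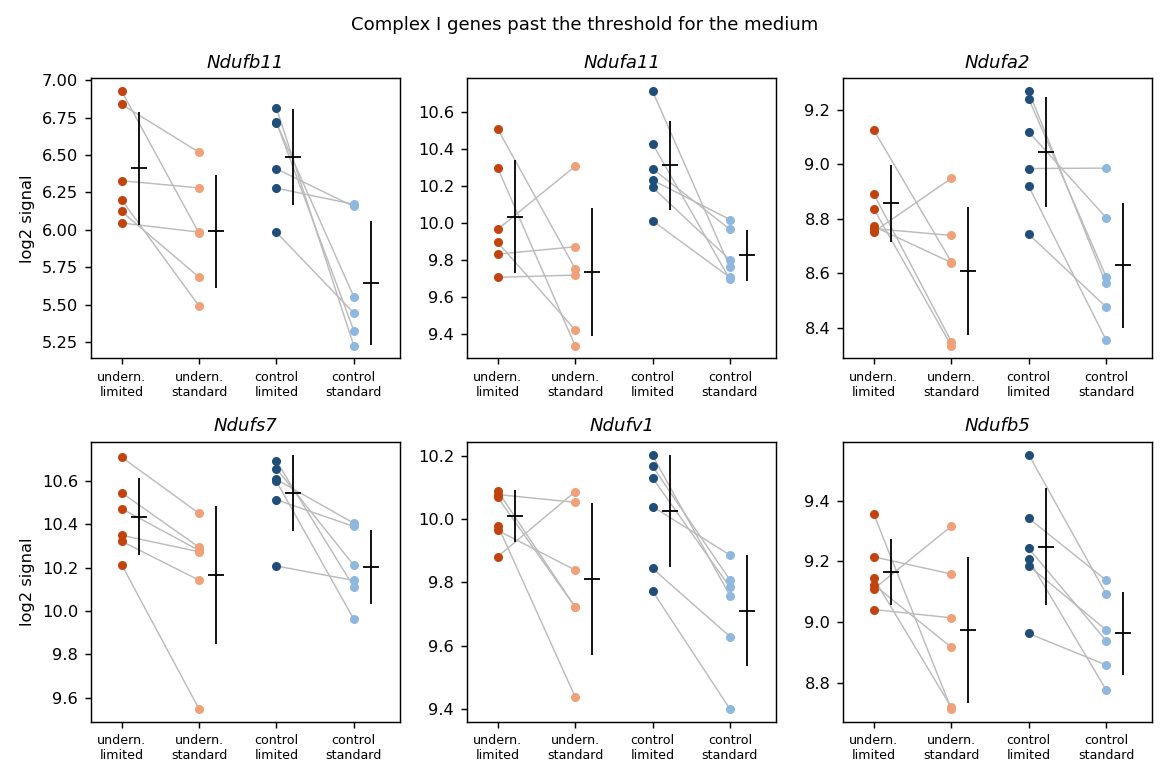
Log2 signal (y axis) of the 6 complex I genes that passed for the medium, by group (x axis, 6 arrays each). Points are arrays, grey lines join arrays of 1 culture number, and black marks are the mean ± SD. Control limited arrays met or overlapped control standard arrays in each gene.

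The 8 assembly factors were described separately. Ndufaf3 binds Ndufaf4 and acts in building the ubiquinone-side module. Ndufaf3 spanned 7.94 to 8.60 in undernourished limited arrays (median 8.20) and 7.89 to 8.34 in undernourished standard arrays (median 8.06). It spanned 8.03 to 8.73 in control limited arrays (median 8.33) and 7.85 to 8.36 in control standard arrays (median 8.08). The ranges overlapped, and 10 of 12 cultures were higher. Its difference of 0.21 ± 0.09 was the 1 of the 8 with an unadjusted p under 0.05 (limma adjusted p = 0.167), and its partner Ndufaf4 was at 0.05 ± 0.06.

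Ndufaf5, which hydroxylates an arginine of Ndufs7, was at 0.16 ± 0.11, and Ndufaf8, which stabilises Ndufaf5, at 0.13 ± 0.10. Ndufaf2, a paralogue of Ndufa12 that holds its place during assembly, was at 0.15 ± 0.10. Ndufaf1, of the complex that builds the membrane arm, was at 0.11 ± 0.08, and Ndufaf6, an early factor, at 0.08 ± 0.09. None of these 5 passed. Ndufaf7, an arginine methyltransferase, was the 1 assembly factor with a negative difference, -0.11 ± 0.08 (limma adjusted p = 0.511), and was higher in limited medium in 3 of 12 cultures. Its signal was 7.94 to 8.24 in undernourished limited arrays (median 8.13) and 8.08 to 8.49 in undernourished standard arrays (median 8.24). Control limited arrays gave 7.68 to 8.38 (median 8.22) and control standard arrays 7.84 to 8.49 (median 8.15), so the medians differed in opposite directions in the 2 diets. The fitted differences were negative in both, -0.18 ± 0.12 in undernourished and -0.04 ± 0.12 in control cultures.

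Of 10 measured complex I assembly genes that lack the Ndufaf name, such as Acad9, Ecsit and Tmem126b, 0 passed and the median was 0.07 (2 at an unadjusted p under 0.05). Ecsit was at 0.22 ± 0.10 (limma adjusted p = 0.196) and Nubpl, which delivers iron-sulfur clusters to complex I, at -0.16 ± 0.06 (adjusted p = 0.146). The subunits of complexes II to V had 7 of 38 risen and 0 fallen, with a median of 0.15. These were Sdhb (0.29 ± 0.09), Cyc1 (0.37 ± 0.08), Uqcrc1 (0.32 ± 0.09), Uqcrq (0.31 ± 0.09), Cox4i1 (0.34 ± 0.08), Cox7a1 (0.74 ± 0.18) and Atp5e (0.45 ± 0.11). Complex I and the other complexes thus had medians of 0.19 and 0.15, and a difference between them was not tested. Among 15 regulators of mitochondrial biogenesis, Esrra, an estrogen-related receptor, rose by 0.25 ± 0.06, and Ppargc1b, a coactivator of that receptor, fell by 0.53 ± 0.08.

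The members had a median genomic span of 7839.5 bp in RefSeq, against 16152 bp over all genes with a known span. Among genes at or above the median signal, the 2575 with a span no longer than that of the median member had a median difference of 0.06, with 225 risen and 53 fallen. The 8503 longer ones had a median of -0.00, with 488 risen and 587 fallen. Muscle markers moved in part as well: of 15 myotube markers Ckm and Tnni2 rose (median 0.04) and of 8 satellite cell markers Vcam1 fell (median -0.11), while 0 of 9 fibroblast markers passed (median -0.08). The part of gene span or cell make-up in the differences of complex I genes was not tested.

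Within cultures, the median difference over the 34 subunits ranged widely. In undernourished cultures it was -0.01, 0.27, 0.00, -0.29, 0.43 and 0.32 in numbers 1, 4, 8, 9, 12 and 20. In control cultures it was 0.25, 0.43, 0.49, 0.09, -0.00 and 0.14 in numbers 5, 10, 11, 15, 16 and 24. It was above 0 in 4 of 6 undernourished and 5 of 6 control cultures, with an SD of 0.23 over the 12. Without Ndufa4 and Ndufa4l2 the median was above 0 in 4 of 6 undernourished and 6 of 6 control cultures. The number of subunits higher in limited medium reached 34 of 34 in control culture 10 and was 4 of 34 in undernourished culture 9. Cultures 1, 8 and 16 were balanced, with 16, 17 and 17 of 34 higher.

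The medians of the assembly factors were likewise lowest in culture 9 and highest in culture 11. They were -0.10, 0.19, -0.07, -0.19, 0.25 and -0.03 in undernourished cultures 1, 4, 8, 9, 12 and 20. The control values were 0.23, 0.37, 0.52, 0.03, -0.09 and 0.15 in cultures 5, 10, 11, 15, 16 and 24. They were above 0 in 2 of 6 undernourished and 5 of 6 control cultures. In culture 20 the subunits and the assembly factors stood apart, at 0.32 and -0.03, and 30 of 34 subunits but 2 of 8 assembly factors were higher.

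**Figure D3:**
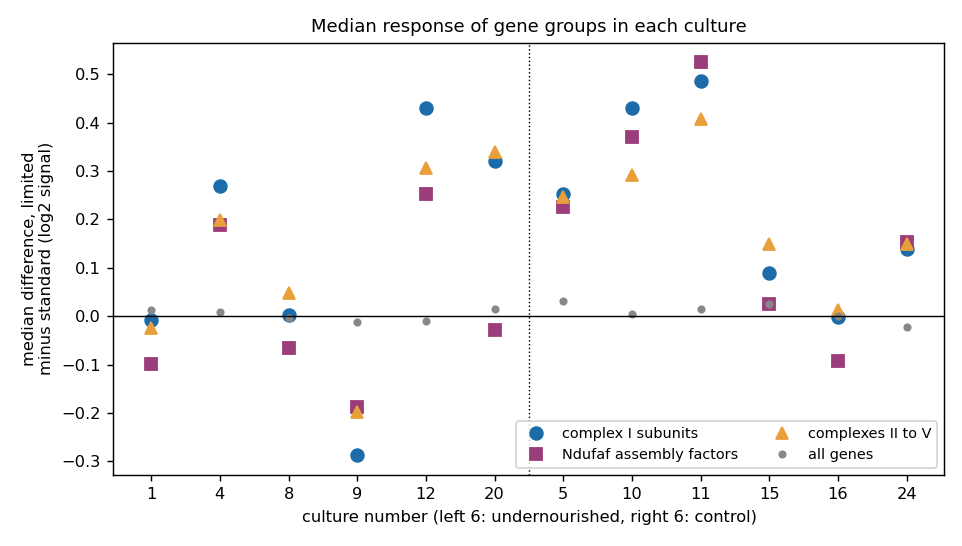
Median difference between limited and standard medium (y axis, log2 signal) in each of the 12 cultures (x axis) for complex I subunits, Ndufaf assembly factors, subunits of complexes II to V and all genes. The median of all genes stayed between -0.02 and 0.03, while that of the subunits lay between -0.29 in culture 9 and 0.49 in culture 11.

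Complexes II to V stood at -0.20 in culture 9 and 0.41 in culture 11, the same ends of the range. Culture 9 gave the lowest response of 27 of 34 subunits, among them Ndufc1 (-0.56), Ndufa13 (-0.54), Ndufb7 (-0.45) and Ndufa5 (-0.45). In the same culture Ndufb11 (0.05), Ndufs7 (0.08), Ndufs1 (0.18) and Ndufs5 (0.41) were positive. Culture 11 gave the highest response of 16 of 34 subunits and 4 of 8 assembly factors. The Ndufs5 response was 0.76 in undernourished culture 1 and -0.81 in control culture 11, where the subunit medians were -0.01 and 0.49. Beside these values, the median fibroblast marker response was -0.58 in culture 9 and 0.51 in culture 16, and the median response of myotube markers lay between -0.04 and 0.21 over the 12 cultures. Their part in the spread of complex I responses was not tested.

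**Figure D4:**
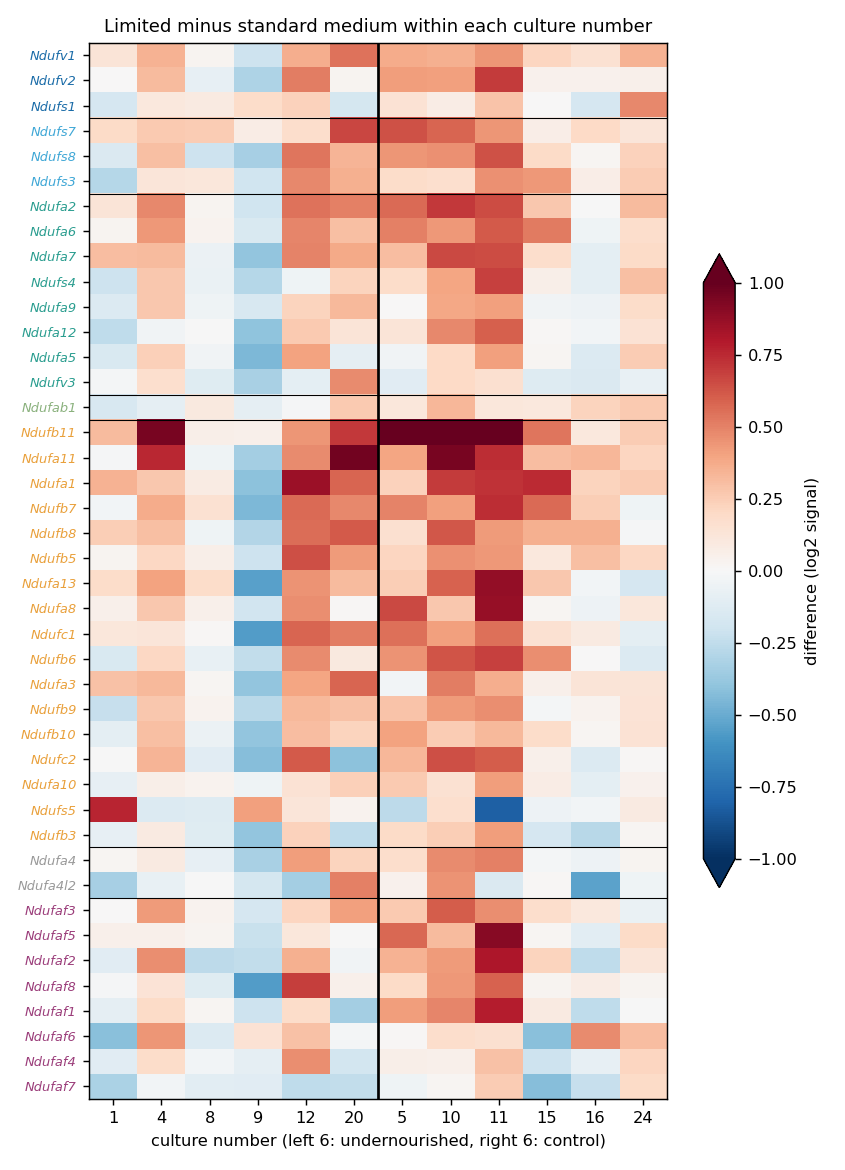
Difference between limited and standard medium (colour, log2 signal, red higher in limited, darkest from 1 on) for the 42 genes (rows, ordered and coloured by role) in the 12 cultures (columns, undernourished left). The column of culture 9 is mostly blue, with 4 of 34 subunits higher, and that of culture 10 is red for all 34.

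Measured on arrays, the median signal over the 34 subunits was 9.06 ± 0.06 in undernourished limited, 8.93 ± 0.25 in undernourished standard, 9.18 ± 0.17 in control limited and 8.90 ± 0.18 in control standard arrays (SD, n = 6). The groups overlapped. The undernourished limited arrays lay closest together, from 8.97 to 9.16, and the undernourished standard arrays furthest apart, from 8.67 to 9.34. Culture 9 supplied both the highest undernourished standard array (9.34) and the lowest undernourished limited array (8.97). For the assembly factors the means were 7.87 ± 0.11 in undernourished limited, 7.87 ± 0.21 in undernourished standard, 8.01 ± 0.29 in control limited and 7.88 ± 0.18 in control standard arrays.

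**Figure D5:**
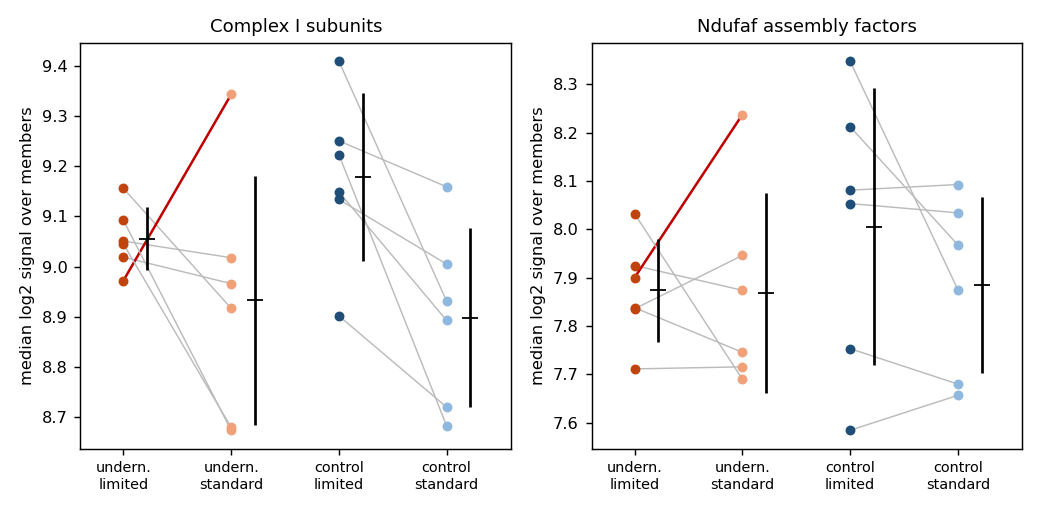
Median log2 signal over the 34 subunits (left) and the 8 assembly factors (right) on each array (y axis), by group (x axis, 6 arrays each). Lines join arrays of 1 culture number, with culture 9 in red, and black bars are the mean ± SD. Culture 9 runs opposite to most cultures, with 8.97 in limited and 9.34 in standard medium over the subunits.

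Within undernourished cultures alone, limma called 0 of 42 members for the medium, where 1.46% of all genes passed, 0.726% higher. At an unadjusted p under 0.05 there were 3, Ndufs7 (0.27 ± 0.12), Ndufa2 (0.25 ± 0.12) and Ndufb11 (0.42 ± 0.20), against 13.4% of all genes. Their adjusted p were 0.329, 0.351 and 0.357. The next by p were Ndufa11 (0.30 ± 0.15) and Ndufa3 (0.20 ± 0.10). On the negative side the smallest p belonged to Ndufaf7 (-0.18 ± 0.12), followed by Ndufb3 (-0.09 ± 0.12), Ndufa4l2 (-0.07 ± 0.15), Ndufa12 (-0.05 ± 0.12) and Ndufaf1 (-0.04 ± 0.12). The median was 0.09 over the subunits, with 29 of 34 positive, and 0.03 over the assembly factors. The count was 0 under each alternative run.

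Within control cultures alone, limma also called 0 of 42, where 0.343% of all genes passed, 0.167% higher. At an unadjusted p under 0.05 there were 20 subunits and 3 assembly factors, all higher, against 13.1% of all genes. The smallest p belonged to Ndufb11 (0.84 ± 0.20, adjusted p = 0.0555), followed by Ndufa2 (0.42 ± 0.12, adjusted p = 0.105), Ndufa11 (0.49 ± 0.15), Ndufv1 (0.31 ± 0.10) and Ndufb6 (0.35 ± 0.12). The 4 members with a negative difference were Ndufs5 (-0.15 ± 0.12), Ndufaf7 (-0.04 ± 0.12), Ndufa4l2 (-0.04 ± 0.15) and Ndufv3 (-0.02 ± 0.09). The median was 0.27 over the subunits and 0.24 over the assembly factors. Ndufb11 alone was called among genes at or above the median signal, without cultures 16 and 20, without undernourished culture 1 and without undernourished culture 20, and Ndufb11, Ndufa2 and Ndufa11 were called with array weights.

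Set against each other, the medium differences of undernourished and control cultures differed past the threshold for 0 of 42 members by the interaction term of limma, and for 0% of all genes; 0 members had an unadjusted p under 0.05, against 2.9% of all genes. The interaction is the response of undernourished minus that of control cultures. It was negative in 31 of 34 subunits and 8 of 8 assembly factors, with medians of -0.15 and -0.17 against -0.01 over all genes. The smallest p on the negative side belonged to Ndufab1 (-0.19 ± 0.10, unadjusted p = 0.0690 in limma), then Ndufb6 (-0.30 ± 0.17), Ndufaf1 (-0.29 ± 0.17), Ndufa12 (-0.27 ± 0.17) and Ndufs4 (-0.27 ± 0.17). On the positive side were Ndufs5 (0.33 ± 0.18, unadjusted p = 0.0747), Ndufv3 (0.03 ± 0.13) and Ndufa3 (0.01 ± 0.14). Every adjusted p of these genes was 1.00. The median over the 42 members was -0.08 without culture 9, and the count of calls was 0 under each alternative run.

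For maternal diet in limited medium, undernourished minus control, limma called 0 of 42 members and 0% of all genes. The 1 member with an unadjusted p under 0.05, against 5.44% of all genes, was Ndufs4, an accessory subunit whose loss in mice gives a Leigh-like encephalopathy. Ndufs4 spanned 8.99 to 9.33 in undernourished limited arrays (median 9.17) and 8.95 to 9.72 in control limited arrays (median 9.45). The ranges overlapped, and the difference was -0.25 ± 0.12 (limma adjusted p = 0.894). Ndufa7 (-0.26 ± 0.13), Ndufa11 (-0.28 ± 0.15), Ndufs8 (-0.24 ± 0.13) and Ndufaf2 (-0.24 ± 0.14) came next. The 4 members with a positive difference were Ndufs1 (0.12 ± 0.10), Ndufv3 (0.08 ± 0.09), Ndufaf4 (0.08 ± 0.09) and Ndufs5 (0.01 ± 0.12). The medians were -0.10 over the subunits, -0.10 over the assembly factors, -0.08 over complexes II to V and 0.00 over all genes.

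For maternal diet in standard medium limma again called 0 of 42 members and 0% of all genes. At an unadjusted p under 0.05, reached by 3.14% of all genes, there were 2 members of opposite sign. Ndufs5, which lies on the intermembrane-space face of the membrane arm, spanned 5.02 to 5.56 in undernourished standard arrays (median 5.40) and 5.51 to 5.86 in control standard arrays (median 5.62). Its difference was -0.32 ± 0.12 (unadjusted p = 0.0164, limma adjusted p = 1.00), in a dim probe set whose ranges overlapped at the ends. Ndufs1, the largest iron-sulfur subunit, spanned 10.36 to 10.75 in undernourished standard arrays (median 10.44) and 10.12 to 10.48 in control standard arrays (median 10.25). It differed by 0.21 ± 0.10 (unadjusted p = 0.0424, limma adjusted p = 1.00).

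The next members on the positive side in standard medium were Ndufab1 (0.14 ± 0.07), Ndufb11 (0.34 ± 0.20), Ndufaf5 (0.25 ± 0.15) and Ndufaf1 (0.19 ± 0.12). On the negative side they were Ndufa3 (-0.09 ± 0.10), Ndufa7 (-0.12 ± 0.13), Ndufaf6 (-0.10 ± 0.12) and Ndufa11 (-0.09 ± 0.15). The medians were 0.06 over the subunits and 0.05 over the assembly factors, against 0.01 over all genes. The diet differences in the 2 media share no arrays, but their culture numbers are the same.

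With both arrays of a culture averaged, 6 undernourished cultures were compared with 6 control cultures. Limma called 0 of 42 members and 0% of all genes, and at an unadjusted p under 0.05 there were 0 members against 3.57% of all genes. Ndufs1 had the smallest p (0.16 ± 0.08, unadjusted p = 0.0533), and the other positive ones in order were Ndufaf4 (0.08 ± 0.06), Ndufv3 (0.07 ± 0.07), Ndufb11 (0.13 ± 0.14) and Ndufab1 (0.05 ± 0.06). On the negative side were Ndufs5 (-0.16 ± 0.08), Ndufa11 (-0.18 ± 0.09), Ndufa7 (-0.19 ± 0.10), Ndufaf6 (-0.13 ± 0.09) and Ndufa13 (-0.15 ± 0.10). The median was -0.03 over the subunits and -0.00 over the assembly factors. Counts for maternal diet, in either medium or over both, were 0 under each alternative run.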

How the data were processed

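For each of 41345 transcript clusters the authors deposited 1 value per array. Per the submitters' processing notes, the authors made these values with RMA in Affymetrix Expression Console. The genome build and tool versions were not given in the sources used here. Deposited values, which span 1.69 to 14.1, were taken as log2 signal, although no source states the base. Per the labels' protocols, Trizol served for RNA extraction and the WT PLUS protocol for biotin labelling. No 2 arrays held identical values: the highest correlation between arrays was 0.990.

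Clusters were named through the platform annotation: 23521 carried 1 gene symbol, 1814 several and 16010 were unnamed here. Of those with 1 symbol 23328 were matched to a current RefSeq symbol, and the brightest cluster was kept for each of 22180 genes, 1082 of which had several. The naming rule matched 45 clusters, and 6 clusters with several symbols that include an Nduf symbol were left out.

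Differences were fitted with limma 3.58.1 in R 4.3.3 (lmFit and eBayes, 24 arrays, 4 groups, no covariate), and for maternal diet over both media on 12 culture means. Tables and plots were made with Python 3.11.15, pandas 2.3.3 and matplotlib 3.10.9. The fit was tested on simulated data for the medium over both diets and for maternal diet over both media only. The simulated noise was independent between arrays, so correlation within a culture number was not covered. The number of arrays limits the precision. The alternatives tried were culture number as a block, a repeated quantile normalization, genes at or above the median level, array weights, the mean of all clusters of a gene, a second title number as covariate, leaving out cultures 16 and 20 or each culture in turn, and an adjusted p of 0.1.

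The members, gene lists and comparisons were chosen with earlier results of these data known. Named genes are the core subunits, every member past the threshold, the 5 smallest p in each direction where fewer than 5 passed, every Ndufaf gene and the 3 highest and 3 lowest mean signals. For the other lists, up to 4 genes past the threshold are named. Other genes named were chosen after their values were seen.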

Additional observations from a re-analysis of the deposited data

Results flagged for a closer look

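In 84 sets of 6 values, 9 held a value whose gap to the nearest of the others was large for the range of the set (Dixon's criterion). The sets were the levels of named members by group, and the median levels and median medium responses of subunits and assembly factors. Chance alone gives about 1 in 20 for independent sets, but these sets share arrays. Among genes that rose, Ndufa2 was high in undernourished limited culture 4, at 9.12 against 8.75 to 8.89 in the other 5. Ndufs7 was low in undernourished standard culture 20, at 9.55 against 10.14 to 10.45, and in control limited culture 15, at 10.21 against 10.51 to 10.69. Culture 20 was also low in undernourished limited medium for Ndufs1 (10.23 against 10.54 to 10.68), Ndufaf1 (8.02 against 8.38 to 8.55) and Ndufaf5 (6.30 against 6.63 to 6.76). Ndufaf5 was low in control standard culture 5 (5.73 against 6.40 to 6.74) and Ndufs3 in control standard culture 15 (6.81 against 7.13 to 7.27). Ndufaf8 was high in undernourished standard culture 9 (8.19 against 7.43 to 7.70). These arrays stayed in all fits but those that leave their culture out.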

How the results depend on the processing

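Over the medium as a whole, 6 subunits rose. The count was 10 with a replicate block of culture number, 10 with array weights, and 2 to 13 when 1 culture was left out. The correlation of deviations from the group means was -0.05 in culture 9 and 0.02 in culture 12, against 0.19 to 0.56 in the others. In 10 of 12 cultures both arrays correlated best with their own number, so most numbers paired the arrays, but not all. The main fit did not use this pairing. The median difference of the subunits lay between 0.15 and 0.22, and that of the assembly factors between 0.07 and 0.17. In control cultures 0 complex I genes were called, but Ndufb11 with the replicate block (0.84 ± 0.17, limma adjusted p = 0.0201, against 0.0555 without it), giving 1, and 1 with genes at or above the median level, 1 without cultures 16 and 20, 1 at an adjusted p of 0.1, 3 with array weights and 0 to 1 when 1 culture was left out. The other 0 counts were 0 in all alternatives run. Differences that changed sign were all near 0 and not past the threshold. For the medium in control cultures, Ndufaf7 ran from -0.0983 to 0.0378 when 1 culture was left out, Ndufa4l2 from -0.132 to 0.0644 (array weights 0.0473, without cultures 16 and 20 0.0644) and Ndufv3 from -0.0604 to 0.00825 (without 16 and 20 0.00825). In undernourished cultures, Ndufa12 ran from -0.114 to 0.0198 (mean of clusters 0.0189) and Ndufaf1 from -0.0847 to 0.0229 (array weights 0.00173, without 16 and 20 0.0229). For maternal diet in standard medium Ndufa11 was at 0.0327 with the mean of its clusters and 0.0181 without 16 and 20. In limited medium Ndufv3 was at -0.00509 without 16 and 20, and Ndufs5 was at -0.00777 after quantile normalization and from -0.0973 to 0.0659 with 1 culture left out. For the difference between diets, Ndufv3 ran from -0.0616 to 0.0971 (array weights -0.0247, without 16 and 20 -0.0875) and Ndufa3 from -0.0679 to 0.127 (array weights -0.0346, without 16 and 20 -0.0808). The cause of these shifts was not tested.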
